A study of Mus musculus with 18 samples.

Results

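The comparison asked whether epidermis that lacks the aryl hydrocarbon receptor (AhR) answers tape stripping differently within its first 6 h. The quantity is a difference of responses: the change from 0 h to 6 h in AhR-/- mice (KO) minus the change from 0 h to 6 h in AhR+/+ littermates (WT). It uses 12 of the 18 arrays, 3 in each of 4 groups, and was computed for the 23521 of 33793 rows of the array that name a single gene. A positive value means that the KO response was the higher of the pair, and a negative value that it was the lower, whatever the direction of each response.

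The groups were KO 6 h after stripping, KO unstressed (0 h), WT 6 h after stripping and WT unstressed (0 h). All 12 samples came from females, on a B6;129 background. The KO samples are labelled AhR-/- and were taken to carry the null allele of the line B6.129-AhRtm1Bra/J. The labels' growth protocol also names conditional AhR deletions. A null allele is present in the whole body, so on that reading keratinocytes, resident T cells and Langerhans cells of the KO all lack the receptor. Back skin was shaved in every group, and in the 6 h groups it was stripped with Tegaderm film 6 h before sampling. Total RNA of epidermal sheets was hybridised to Affymetrix gene arrays. Neither the age nor any pooling of animals is stated in the labels. The p-values measure the spread between these samples, which the series text describes as littermates.

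AhR is a transcription factor of the cytoplasm that moves to the nucleus once a ligand binds it, pairs with ARNT and binds xenobiotic response elements. In skin its ligands include light and dietary products of tryptophan, and it is known for inducing cytochrome P450 enzymes, for shaping barrier formation and for keeping the T cells of mouse epidermis. Tape stripping pulls away cornified layers. Keratinocytes beneath are known to answer with wound keratins, alarmins, growth factors and a later burst of proliferation, which needs ribosomes and new DNA.

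Each row of the deposited values had been centred on its own median, so the values carry differences between arrays and no level, and the tissue markers cannot be checked by their abundance. Array medians lay between -0.02 and 0.01, and SDs over all rows between 0.134 and 0.222, all on a log2 scale. The array farthest from the other replicates of its group lay at a root mean square distance of 0.243, in WT 0 h replicate 1 and in KO 6 h replicate 1 alike. The labels also give each sample a 4-digit number whose meaning is not stated. Numbers below 3000 and from 3000 both occur in each of the 4 groups, so the difference of responses could also be computed within each class. Below 3000, KO 0 h has 1 array. From 3000, KO 6 h, WT 6 h and WT 0 h have 1 array each. In KO 6 h and WT 0 h that is the replicate 1 array named above as farthest from its group. Values within a class therefore rest partly on single arrays.

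Ahr itself was read first. It stood at -0.63, -0.65 and -0.77 in KO at 6 h, against -0.13, 0.04 and -0.02 in KO at 0 h, and at 0.06, 0.58 and 0.64 in WT at 6 h, against 0.63, 0.16 and 0.07 in WT at 0 h. At both times all KO arrays were below all WT arrays, and the KO arrays at 6 h were below those at 0 h, while the WT arrays of the 2 times overlapped. The difference of responses for Ahr was -0.79 (SE 0.203, adjusted p = 0.0859) and did not pass. It was -1.08 within numbers below 3000 and -0.08 within numbers from 3000. The array's probes may lie outside the deleted part of the gene, so the row is a partial check of the labels.

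The genotypes differed in their 6 h response for genes of several kinds. Genes of growth arrest and catabolism (Fbxo32, Cdkn1b, Pik3ip1), modulators of WNT and BMP signalling (Rspo3, Sostdc1, Axin2) and the interleukin receptor chain Il22ra1 had the lower response in KO. The wound keratin Krt16, the detoxifying enzyme Gsta4, the ERBB ligand Nrg1, 4 subunits of the MCM replicative helicase and nucleolar genes such as Utp4 and Ddx21 had the higher response in KO. In all, 172 rows (0.731% of 23521), each of a different gene, passed limma's moderated test at an adjusted p under 0.05. Of these, 55 (0.234%) were higher and 117 (0.497%) lower. An unadjusted p under 0.05 was reached by 3080 rows (13.1%), 1182 of them higher (5.03% of all rows) and 1898 lower (8.07%), which are the shares to set beside such counts in the gene lists. Over all rows the median difference of responses was 0.01.

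By their means, KO and WT mostly moved in opposite directions in the rows that passed. From 0 h to 6 h they did so in 171 of the 172 rows (99.4%), against 48.6% of all rows. The KO change was the larger in size in 159 (92.4%, against 64.5% of all rows), and it passed on its own in 160 (93%), against 4.98% of all rows. No row passed for the WT change (0% of 23521), with 1086 rows (4.62%) at an unadjusted p under 0.05 in limma. Among the 55 higher rows the median KO response was 0.64 and the median WT response -0.27, and among the 117 lower rows they were -0.61 and 0.22. These shares describe rows chosen for a large difference of responses, for which opposite signs are favoured. Over all rows, the responses had an SD of 0.242 in KO and 0.122 in WT.

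The opposite WT direction rested mostly on numbers below 3000. KO and WT moved in opposite directions in 170 of the 172 rows within that class (58.1% of all rows), and in 100 (58.1%) within numbers from 3000 (39.9% of all rows), where WT has 1 array at each time. The median WT response of the 117 lower rows was 0.32 below 3000 and 0.03 from 3000, and of the 55 higher rows -0.36 and -0.07. The median KO response was -0.60 and -0.59 in the lower rows and 0.58 and 0.80 in the higher rows. In Rspo3, Cdkn1b, Klhl24 and Slitrk6 the WT response was 0.84, 0.25, 0.38 and 0.49 below 3000, and -0.37, -0.33, -0.65 and -0.61 from 3000, the direction of KO. In Gsta4 and Krt16 it was -1.08 and -1.12 below 3000, and 0.62 and 0.998 from 3000. The difference of responses was over 1.5 times as large below 3000 as from 3000 in 72 of the 172 rows (41.9%). That is near the share of all rows (40.2%). The reverse held in 9 (5.23%), against 34.8% of all rows. With the number class as a block, 145 rows passed for the difference of responses.

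**Figure D1:**
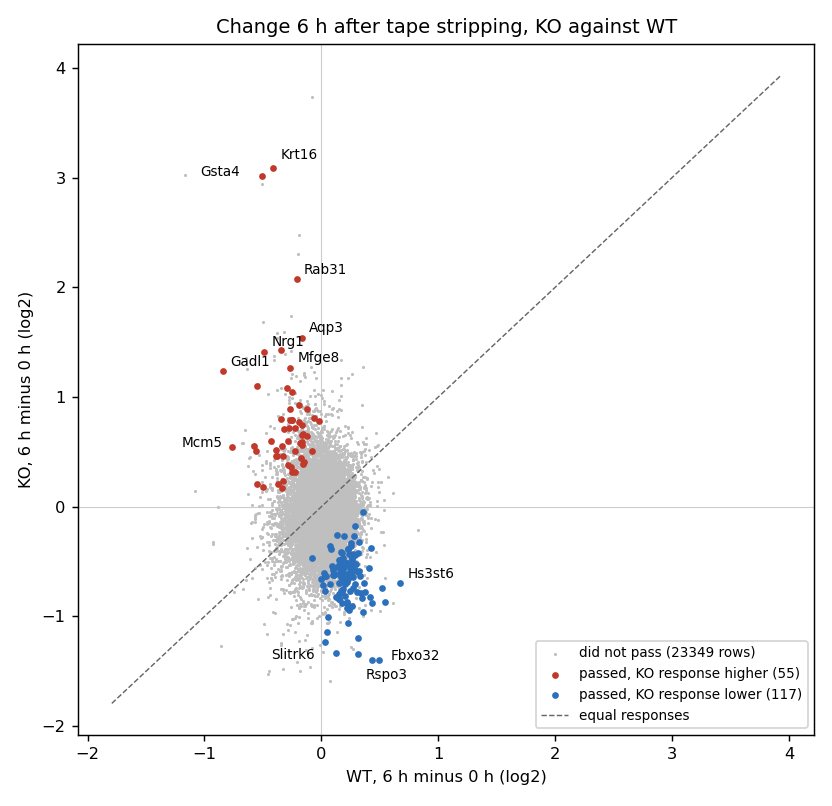
Each point is 1 row of the array, with its mean change from 0 h to 6 h in KO on the vertical axis and in WT on the horizontal axis, in log2. Rows that passed (red, 55 higher in KO; blue, 117 lower) lie away from the dashed line of equal responses, nearly all in the quadrants where the genotypes moved in opposite directions.

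KO and WT also lay apart at 0 h in most of these rows, the other way round from 6 h. KO minus WT had opposite signs at 0 h and 6 h in 169 of the 172 rows (98.3%), against 52.2% of all rows. Of the 172, 106 passed for KO against WT at 6 h (2.18% of all rows did) and 9 at 0 h (0.0978% of all rows did). KO and WT arrays did not overlap at 6 h in 156 of the 172, against 17.7% of all rows, nor at 0 h in 119, against 13.7%. The KO arrays of 6 h and 0 h did not overlap in 167 (24.5% of all rows), and the WT arrays of 6 h and 0 h in 71 (9.26%). The same arrays chose these rows, so the counts describe them and are no support for them.

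Fbxo32 came first by size and by p among the lower rows. It encodes atrogin-1, the substrate-binding part of a ubiquitin ligase known from muscle atrophy and induced by FOXO transcription factors when insulin signalling is low. Fbxo32 stood at -0.58, -0.57 and -0.71 in KO at 6 h, against 0.59, 1.01 and 0.71 in KO at 0 h, and at 0.10, 0.46 and 0.42 in WT at 6 h, against 0.05, -0.25 and -0.31 in WT at 0 h. None of these groups overlapped within a genotype or within a time: KO was the lower genotype at 6 h and the higher one at 0 h. The difference of responses was -1.89 (SE 0.20, adjusted p = 0.00288), which is 3.70-fold, made of a 2.62-fold fall in KO (-1.39) and a WT change of 0.50. It was -1.95 and -1.50 within the 2 classes of numbers, and it passed without any 1 of the 12 arrays.

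A further 2 members of the list of FOXO-type quiescence and catabolism passed. Cdkn1b, which encodes the cyclin-dependent kinase inhibitor p27, stood at -0.51, -0.70 and -0.47 in KO at 6 h, against 0.15, 0.71 and 0.46 in KO at 0 h, and at 0.07, 0.16 and 0.22 in WT at 6 h, against 0.40, -0.09 and -0.03 in WT at 0 h. The KO arrays separated by time and the WT arrays did not, and the difference of responses was -1.06 (SE 0.203, adjusted p = 0.0386). Pik3ip1, a membrane inhibitor of PI3 kinase, had a difference of -0.75 (adjusted p = 0.0488), with responses of -0.57 in KO and 0.19 in WT. Of the 23 members measured, these 3 passed lower and none higher, 12 had an unadjusted p under 0.05 and all 12 were lower, and the median difference was -0.52, against 0.01 over all rows. Irs1, the insulin receptor substrate, had -0.91 (adjusted p = 0.0707) on 1 row and -0.25 (adjusted p = 0.461) on the other. The list's mean over its members ran from -0.25 to -0.21 in KO at 6 h, from 0.19 to 0.29 in KO at 0 h, from -0.03 to 0.18 in WT at 6 h and from -0.03 to 0.04 in WT at 0 h.

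Other regulators of arrest and turnover lay on the same side, picked here after their values were seen except for Klhl24. Klhl24, a ubiquitin ligase adaptor that controls keratin 14 turnover in human skin, stood at -0.21, -0.18 and -0.22 in KO at 6 h, against 0.82, 1.13 and 1.13 in KO at 0 h. In WT it stood at -0.03, 0.51 and 0.41 at 6 h, against 0.62, 0.18 and -0.01 at 0 h, so the WT times overlapped and the KO times did not. Its difference of responses was -1.27 (SE 0.217, adjusted p = 0.0283), with -1.40 below 3000 and -0.69 from 3000. Mxd4, a partner of MAX that opposes MYC, had a difference of -0.96 (adjusted p = 0.0166) and passed in 11 of 12 fits that left out 1 array. Klhl24 passed in 5 of these fits, and Rbl2 and Ezh1, described next, in 3 and 4. Rbl2, the pocket protein p130 that binds E2F factors in resting cells, had -0.76 (adjusted p = 0.0330; -0.82 below 3000 and -0.54 from 3000), and Ezh1, a histone H3 lysine methyltransferase of resting cells, had -0.74 (adjusted p = 0.0431).

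Il22ra1 also had a lower response in KO. It encodes the chain through which interleukin 22 acts on keratinocytes. Il22ra1 stood at -0.70, -0.55 and -0.76 in KO at 6 h, against 0.04, 0.31 and 0.11 in KO at 0 h, and at 0.06, 0.04 and 0.04 in WT at 6 h, against -0.25, -0.37 and -0.48 in WT at 0 h. The 4 groups did not overlap with each other within a genotype or a time. The difference of responses was -1.23 (SE 0.143, adjusted p = 0.00465), 2.35-fold, from -0.82 in KO and 0.41 in WT. With Fbxo32 it was one of 2 genes that passed in each of the 12 fits without 1 array, and the classes of numbers gave -1.15 and -1.22. Il20rb, the other chain of receptors for interleukins 20 and 24, was chosen after its value was seen and had a difference of -1.17 (SE 0.213, adjusted p = 0.0323).

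The promoter of Il22ra1 is shown because AhR binds the xenobiotic response element, whose core is GCGTG. The stretch is the 250 bases before the annotated start from RefSeq, at chr4:135727909-135728158 on the plus strand of GRCm38.p6, printed 5′ to 3′; a match would be in capitals.
Il22ra1: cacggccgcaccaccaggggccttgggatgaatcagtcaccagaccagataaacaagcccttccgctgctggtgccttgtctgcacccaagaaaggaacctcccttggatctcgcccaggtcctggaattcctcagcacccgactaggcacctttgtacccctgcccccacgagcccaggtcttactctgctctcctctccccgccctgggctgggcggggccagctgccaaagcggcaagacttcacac
Neither the core nor its longer form TNGCGTG is in this window on either strand, which says only that these letters are not there. The core was in 19 of 57 promoters (33.3%) of the genes with a higher response in KO and in 50 of 121 (41.3%) of those with a lower one, some genes having several promoters, against 7046 of 20611 (34.2%) over all promoters of that length. The longer form, whose matches are also matches of the core, was in 5.26% and 5.79% of those promoters, against 4.94% of all.

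Modulators of WNT and BMP signalling formed the next group. Rspo3, an R-spondin that amplifies WNT signalling through LGR receptors, stood at -0.84, -0.56 and -0.82 in KO at 6 h, against 0.74, 0.85 and 0.38 in KO at 0 h. In WT it stood at -0.12, 0.71 and 0.34 at 6 h, against 0.25, -0.22 and -0.41 at 0 h. The KO arrays of the 2 times lay far apart, the WT arrays overlapped, and the difference of responses was -1.83 (SE 0.277, adjusted p = 0.0181), 3.55-fold. It was -2.27 within numbers below 3000 and -1.08 from 3000.

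Sostdc1, a secreted antagonist of BMP and WNT ligands, stood at -1.06, -0.85 and -1.03 in KO at 6 h, against 0.08, 0.43 and 0.13 in KO at 0 h, and at -0.02, -0.26 and 0.03 in WT at 6 h, against 0.04, -0.65 and -0.59 in WT at 0 h. Every KO array at 6 h was below every other array of these groups, and the difference of responses was -1.51 (SE 0.228, adjusted p = 0.0181). Sostdc1 lies 0.816 Mb from Ahr, within the stretch of chromosome 12 that can be carried over from the strain in which the null allele was made. Of 164 rows within 20 Mb of Ahr, 3 passed, beside 172 of all 23521 rows (0.731%). The others near Ahr were Atxn7l1 (-0.66 on 1 row, with -0.05 and -0.31 on its other rows, adjusted p of 0.927 and 0.396) and Ccdc71l. The part of linked sequence in these 3 was not tested.

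Axin2, a feedback inhibitor that WNT signalling itself induces, had a difference of -1.01 (SE 0.198, adjusted p = 0.0413) on 1 row and of -0.06 (adjusted p = 0.932) on its other row. Of the 37 measured members of the list of WNT, BMP and R-spondin modulators, 2 passed, both lower (Rspo3 and Axin2; Sostdc1 is not on that list), 15 were lower at an unadjusted p under 0.05 and none higher, and the median was -0.38. Below 3000 and from 3000 the median of that list was -0.21 and -0.07. The hedgehog coreceptors Boc and Cdon had differences of -1.18 (SE 0.233, adjusted p = 0.0424) and -0.93 (SE 0.185, adjusted p = 0.0424), Cdon being chosen after its value was seen. Their responses were -0.83 and -0.76 in KO and 0.35 and 0.17 in WT. Within numbers below 3000 and from 3000 the difference was -1.39 and -0.55 for Boc, and -1.04 and -0.58 for Cdon.

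The 15 largest lower differences also held enzymes, transporters, a channel and receptors. Hs3st6, a sulfotransferase of heparan sulfate chains, stood at -0.35, -0.40 and -0.22 in KO at 6 h, against 0.52, 0.43 and 0.17 in KO at 0 h, and at 0.42, 0.11 and 0.48 in WT at 6 h, against -0.02, -0.41 and -0.56 in WT at 0 h. All 4 groups separated within genotype and time, the responses were alike in size (-0.70 in KO and 0.67 in WT), and the difference was -1.37 (SE 0.196, adjusted p = 0.0166). Slc6a4, the serotonin transporter, had a difference of -1.32 (adjusted p = 0.0223) and the potassium channel gene Kcnj2 of -1.28 (adjusted p = 0.0471). Rasgrp1, an exchange factor that activates RAS, had -1.31 (adjusted p = 0.0185). Calcrl, the receptor of calcitonin gene-related peptide and adrenomedullin, had -1.19 (adjusted p = 0.0283), by the means almost all of it from KO (-1.14, against 0.05 in WT). Its WT response was 0.25 below 3000 and -0.36 from 3000, and its KO response -0.94 and -1.31. Differences below 3000 and from 3000 were -1.76 and -0.66 for Slc6a4, -1.54 and -0.67 for Kcnj2, and -1.55 and -0.88 for Rasgrp1. The others were Slitrk6 (-1.46), Fam180a (-1.41), Mrgprb3 (-1.25) and the glucose transporter gene Slc2a12 (-1.17), with adjusted p between 0.0185 and 0.0424. Fam180a and Slc2a12 had -0.89 and -1.27 below 3000, and -1.87 and -0.84 from 3000.

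**Figure D2:**
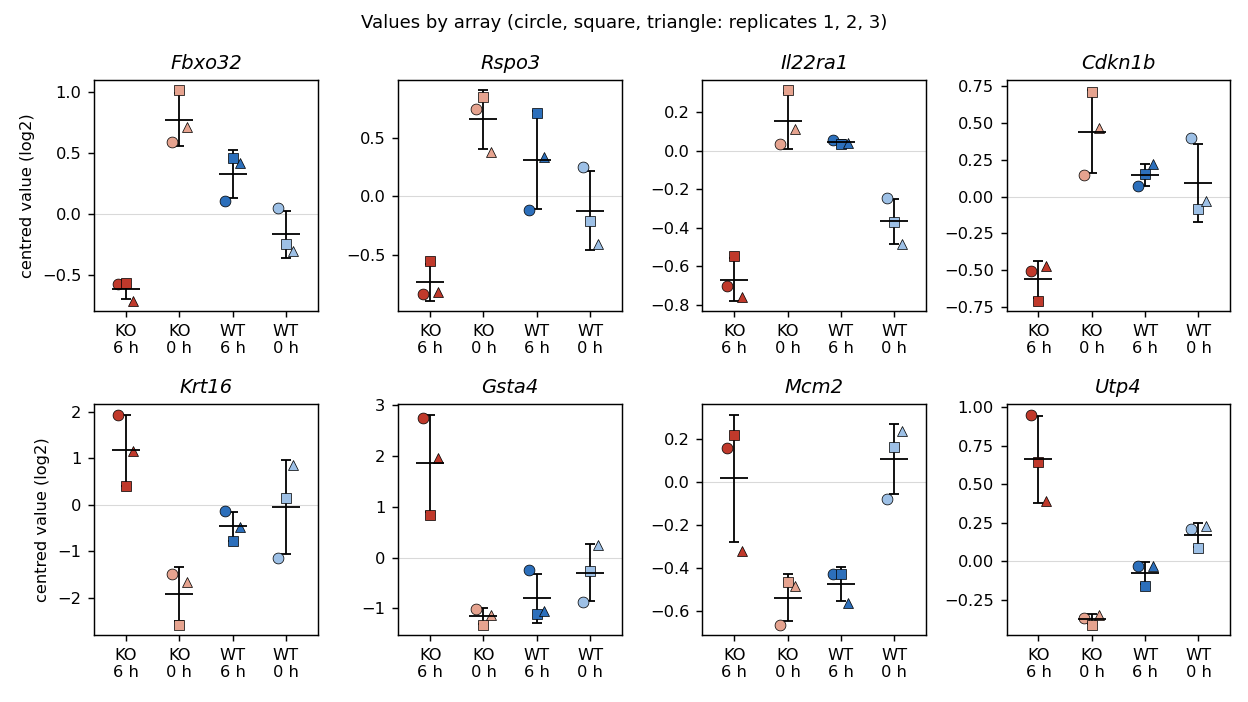
Centred log2 value of 8 genes in each array at 6 h and 0 h, KO left of WT; bars are the mean and SD of the 3 arrays, and circle, square and triangle are replicates 1, 2 and 3. In the upper row KO lies lower at 6 h than at 0 h, with Fbxo32 between -0.71 and -0.57 against 0.59 to 1.01; in the lower row KO lies higher at 6 h, with Krt16 between 0.41 and 1.94 against -2.58 to -1.49.

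Among immediate early genes, Egr1 had a lower response in KO. These genes encode transcription factors and RNA-binding proteins that cells transcribe within minutes of a stimulus. The zinc finger factor gene Egr1 stood at -0.25, -0.52 and -0.74 in KO at 6 h, against 0.05, 0.00 and 0.19 in KO at 0 h, and at 0.07, 0.06 and 0.24 in WT at 6 h, against 0.06, -0.18 and -0.48 in WT at 0 h. The KO arrays at 6 h were below the KO arrays at 0 h and below the WT arrays at 6 h, and the difference was -0.91 (SE 0.187, adjusted p = 0.0454). It was -1.16 within numbers below 3000 and -0.36 from 3000. Egr1 was the 1 member that passed of 32 measured, while 16 were lower and 1 higher at an unadjusted p under 0.05, with a median of -0.37. The values of Zfp36, which speeds decay of cytokine mRNAs (-0.77, adjusted p = 0.0545), Btg2, an antiproliferative factor (-0.76, adjusted p = 0.0760) and Junb, an AP-1 subunit (-0.54, adjusted p = 0.0883) did not pass. The median over the list was -0.49 within numbers below 3000 and -0.08 from 3000.

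A few genes of the differentiated layers had a lower response in KO. Calml3, a calmodulin-like protein of epithelia, stood at -0.54, -0.61 and -0.45 in KO at 6 h, against 0.05, 0.03 and 0.01 in KO at 0 h, and at 0.02, -0.03 and 0.01 in WT at 6 h, against -0.14, -0.34 and -0.01 in WT at 0 h. KO at 6 h stood apart from the other 3 groups, and the difference of -0.73 (SE 0.109, adjusted p = 0.0181) passed in 11 of 12 fits without 1 array. Acer1, the ceramidase of epidermal barrier lipids, had -0.72 (adjusted p = 0.0424), Dgat2, which makes triglycerides, -0.70 (adjusted p = 0.0334; -0.78 below 3000 and -0.51 from 3000), and Cldn8, a tight junction claudin, -1.06 (adjusted p = 0.0397), with -1.42 below 3000 and -0.54 from 3000. The epidermal lipoxygenase Alox12e (-1.27, adjusted p = 0.0553), the filaggrin relative Flg2 (-1.11, adjusted p = 0.0822) and the junction scaffold Tjp3 (-0.58, adjusted p = 0.0982) did not pass.

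The lists around these genes held few calls. Of 50 members for late differentiation and cornified envelope, 1 passed (Calml3) and the median was -0.02. Of 32 for epidermal lipid synthesis, 2 passed (Acer1 and Dgat2, both lower) with a median of -0.14, and of 30 for tight junctions and desmosomes, 1 passed (Cldn8) with a median of -0.14. Among 27 differentiation transcription factors none passed in limma, 11 were lower and none higher at an unadjusted p under 0.05, and the median was -0.33. Notch3, a receptor that drives keratinocytes into differentiation, had the smallest p of these at -0.71 (adjusted p = 0.0693). Below 3000 and from 3000 the median was -0.42 and -0.03 for the differentiation transcription factors. It was -0.34 and 0.15 for epidermal lipid synthesis, and -0.15 and 0.05 for tight junctions and desmosomes.

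The largest higher differences that passed were those of Gsta4 and Krt16. Krt16, a keratin that stressed and wounded epidermis makes, stood at 1.94, 0.41 and 1.16 in KO at 6 h, against -1.49, -2.58 and -1.67 in KO at 0 h. In WT it stood at -0.14, -0.77 and -0.47 at 6 h, against -1.14, 0.14 and 0.84 at 0 h. KO arrays were above WT arrays at 6 h and below them at 0 h without overlap, while the WT arrays of the 2 times overlapped. The difference was 3.50 (SE 0.674, adjusted p = 0.0391), 11.3-fold, with an 8.48-fold rise in KO. KO minus WT was 1.63 (adjusted p = 0.0902) at 6 h and -1.86 (adjusted p = 0.211) at 0 h, so neither time passed by itself.

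Gsta4 encodes a glutathione transferase that removes reactive products of lipid oxidation. It stood at 2.76, 0.85 and 1.96 in KO at 6 h, against -1.002, -1.32 and -1.14 in KO at 0 h, and at -0.24, -1.12 and -1.05 in WT at 6 h, against -0.87, -0.25 and 0.24 in WT at 0 h. The 3 KO arrays at 6 h were above all others, and they differed among themselves by more than the KO arrays at 0 h did. The difference was 3.52 (SE 0.746, adjusted p = 0.0470), 11.5-fold, with 3.49 and 3.36 within the classes of numbers. Gsta4 was the 1 member that passed of 21 NRF2 targets, whose median was 0.17, and of 20 glutathione transferases, whose median was 0.01.

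The list of wound keratins and alarmins held 24 measured members, of which 1 passed (Krt16), 10 were higher and none lower at an unadjusted p under 0.05, and the median was 0.61. Krt6a, the partner keratin of Krt16, had the largest difference of all rows at 4.19, but its SE of 1.05 left it at an adjusted p of 0.0793. Its values were 1.76, 0.30 and 0.53 in KO at 6 h, against -2.65, -1.65 and -2.19 in KO at 0 h, and -0.18, -2.69 and -2.46 in WT at 6 h, against -2.21, 0.09 and 0.29 in WT at 0 h. In WT both times spread over more than 2 log2 units, with replicate 1 apart from the others each time. The difference was 5.83 within numbers below 3000 and 1.65 from 3000, where the WT response was -2.76 and 2.03 and the KO response 3.06 and 3.68. Stfa1, a stefin that inhibits cysteine proteases (3.45, adjusted p = 0.0805), and Sprr1b, a cornified envelope precursor (2.67, adjusted p = 0.108), did not pass either. The list's mean ran from 0.08 to 0.97 in KO at 6 h, from -0.62 to -0.40 in KO at 0 h, from -0.41 to -0.10 in WT at 6 h and from -0.51 to 0.18 in WT at 0 h.

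Other genes with large higher differences had varied roles. Rab31, a small GTPase of vesicle traffic, stood at 2.19, 0.94 and 1.47 in KO at 6 h, against -0.60, -0.46 and -0.56 in KO at 0 h, and at -0.07, -0.25 and -0.36 in WT at 6 h, against -0.40, -0.01 and 0.37 in WT at 0 h. All KO arrays at 6 h were above all other arrays, and the difference was 2.28 (SE 0.421, adjusted p = 0.0330). Nrg1, a neuregulin that binds ERBB receptors, had 1.90 (SE 0.411, adjusted p = 0.0487) and was the 1 member that passed of 30 EGFR ligands and wound repair genes, whose median was 0.12. The difference for Nrg1 was 1.69 below 3000 and 2.53 from 3000. Its KO arrays at 6 h were 1.47, 0.38 and 0.37, against -0.81, -0.73 and -0.48 in KO at 0 h, replicate 1 being the highest. Aqp3, the water and glycerol channel of the epidermis, had 1.70 (adjusted p = 0.0482), Capn2, a calcium-dependent protease, 1.78 (adjusted p = 0.0487), and Ddr2, a collagen receptor kinase, 1.65 (adjusted p = 0.0454). Gadl1, a relative of glutamate decarboxylase (2.08), and Crispld2, a secreted protein (1.38), had adjusted p of 0.0454 and 0.0468. Differences below 3000 and from 3000 were 2.15 and 1.08 for Aqp3, 2.17 and 1.25 for Capn2, 2.03 and 1.32 for Ddr2, and 2.56 and 1.23 for Gadl1. Ptgs2, the inducible cyclooxygenase of the same repair list, had 2.00 (adjusted p = 0.0668) and did not pass.

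Several genes that build ribosomes had a higher response in KO. Utp4, part of the complex that processes the small subunit's RNA in the nucleolus, stood at 0.95, 0.65 and 0.39 in KO at 6 h, against -0.37, -0.42 and -0.35 in KO at 0 h, and at -0.03, -0.16 and -0.03 in WT at 6 h, against 0.21, 0.08 and 0.23 in WT at 0 h. The groups separated within each genotype and each time, KO being the higher at 6 h and the lower at 0 h. The difference was 1.29 (SE 0.236, adjusted p = 0.0323), 2.45-fold. Lyar, a nucleolar protein, stood at 0.83, 0.45 and 0.70 in KO at 6 h, against -0.21, -0.29 and -0.20 in KO at 0 h, with a difference of 1.17 (SE 0.233, adjusted p = 0.0426).

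Within the list of 30 ribosome biogenesis genes, all 30 differences were above 0, the median was 0.68, and 2 passed. These were Ddx21, a nucleolar RNA helicase (1.03, SE 0.214, adjusted p = 0.0454), and Dkc1, the pseudouridine synthase dyskerin (0.89, SE 0.194, adjusted p = 0.0497). A second row of Ddx21 had 0.22 (adjusted p = 0.753). At an unadjusted p under 0.05, 22 of the 30 were higher, among them Wdr75 (0.70, adjusted p = 0.0540) and Rrp9 (0.66, adjusted p = 0.0610), both of small subunit processing. The list's mean was 0.58, 0.16 and 0.18 in KO at 6 h, against -0.23, -0.19 and -0.11 in KO at 0 h, and 0.04, -0.11 and -0.10 in WT at 6 h, against 0.06, 0.12 and 0.22 in WT at 0 h. KO arrays were the higher genotype at 6 h and the lower at 0 h with no overlap, and the median of the list was 0.66 and 0.75 within the classes of numbers.

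The genes of DNA replication that passed were mostly subunits of the MCM helicase, the ring that unwinds DNA at replication forks. Mcm2 stood at 0.16, 0.22 and -0.32 in KO at 6 h, against -0.66, -0.46 and -0.48 in KO at 0 h, and at -0.43, -0.43 and -0.56 in WT at 6 h, against -0.08, 0.16 and 0.24 in WT at 0 h. The 2 genotypes crossed: KO was the higher at 6 h and the lower at 0 h, with no overlap at either time. The difference was 1.13 (SE 0.189, adjusted p = 0.0241), 2.19-fold, from 0.55 in KO and -0.58 in WT. Mcm5 had 1.30 (SE 0.277, adjusted p = 0.0471), Mcm3 1.07 (SE 0.207, adjusted p = 0.0397) and Mcm6 0.76 (SE 0.157, adjusted p = 0.0454).

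For these 4 subunits the WT response (-0.58 for Mcm2, -0.76 for Mcm5, -0.56 for Mcm3 and -0.55 for Mcm6) was larger in size than the KO response (0.55, 0.54, 0.51 and 0.21 in the same order). This held for all 4 within numbers below 3000 and for Mcm6 alone from 3000. The difference for Mcm5 was 1.62 below 3000 and 0.99 from 3000, and for Mcm6 0.91 and 0.59. Clspn, a checkpoint adaptor at stalled forks, had 0.69 (adjusted p = 0.0397), from 0.18 in KO and -0.50 in WT. Of 29 measured members of the list, these 5 passed, all higher, 15 were higher and none lower at an unadjusted p under 0.05, and the median was 0.37. The other helicase subunits Mcm4 (1.06, adjusted p = 0.0510) and Mcm7 (0.59, adjusted p = 0.153) did not pass. Genes of G2 and mitosis, which act after replication, had no member that passed among 29 in limma, with 3 lower and none higher at an unadjusted p under 0.05 and a median of -0.28. That median was -0.49 below 3000 and 0.11 from 3000. Ccna2, the cyclin of S phase and G2, had -0.85 (adjusted p = 0.278), with -1.21 within numbers below 3000 and 0.00 from 3000.

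The promoters of the 4 MCM genes that passed are shown because their values moved together. Each is the 250 bases before the annotated start from RefSeq on GRCm38.p6, printed 5′ to 3′ along the gene: Mcm2 at chr6:88898781-88899030 (minus strand), Mcm3 at chr1:20820313-20820562 (minus strand), Mcm5 at chr8:75109259-75109508 (plus strand) and Mcm6 at chr1:128359706-128359955 (minus strand). Capitals mark matches, on either strand, to the CCAAT box (CCAAT, or ATTGG on the printed strand) and to the E2F motif (TTTCGCGC or TTTGGCGC, or their reverse complements); overlapping matches run together.
Mcm2: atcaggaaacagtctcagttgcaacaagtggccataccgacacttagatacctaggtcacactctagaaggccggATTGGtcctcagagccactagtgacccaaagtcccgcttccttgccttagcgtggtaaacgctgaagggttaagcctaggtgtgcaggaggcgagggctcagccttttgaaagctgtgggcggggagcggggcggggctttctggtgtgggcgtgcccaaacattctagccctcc
Mcm3: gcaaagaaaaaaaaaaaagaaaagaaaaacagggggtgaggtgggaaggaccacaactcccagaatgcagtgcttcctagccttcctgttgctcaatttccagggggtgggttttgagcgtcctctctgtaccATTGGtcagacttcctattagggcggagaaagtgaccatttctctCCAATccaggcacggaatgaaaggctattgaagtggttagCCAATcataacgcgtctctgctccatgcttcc
Mcm5: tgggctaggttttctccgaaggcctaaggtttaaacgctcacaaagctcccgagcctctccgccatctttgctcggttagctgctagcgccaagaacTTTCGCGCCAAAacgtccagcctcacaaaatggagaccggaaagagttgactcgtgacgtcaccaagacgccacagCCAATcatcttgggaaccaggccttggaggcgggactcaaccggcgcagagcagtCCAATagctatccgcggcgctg
Mcm6: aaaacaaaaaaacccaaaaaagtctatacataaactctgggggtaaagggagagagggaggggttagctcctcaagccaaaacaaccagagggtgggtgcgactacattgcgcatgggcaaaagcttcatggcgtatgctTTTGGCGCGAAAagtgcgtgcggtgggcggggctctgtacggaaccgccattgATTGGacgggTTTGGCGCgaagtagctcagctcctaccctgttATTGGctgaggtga
The CCAAT box was found 1 time in Mcm2, 3 times in Mcm3, 2 times in Mcm5 and 2 times in Mcm6. The E2F motif was found 2 times in Mcm5 and 3 times in Mcm6, and in neither Mcm2 nor Mcm3. Of the 28 promoters of the replication list, 21 (75%) held a CCAAT box and 5 (17.9%) an E2F motif, against 34.8% and 0.873% of all 20611 promoters. Among promoters of all genes with a higher response in KO, 42.1% held a CCAAT box and 3.51% an E2F motif, and among those with a lower response 28.9% and 0.826%. A match describes the letters and does not show that a factor binds there.

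Genes of amino acid supply and protein folding were also among those with a higher response in KO. Nars, which charges transfer RNA with asparagine, stood at 0.75, 0.33 and 0.37 in KO at 6 h, against -0.40, -0.33 and -0.23 in KO at 0 h, and at 0.29, -0.34 and -0.37 in WT at 6 h, against 0.13, 0.16 and 0.32 in WT at 0 h. The KO times separated, the WT times overlapped, and the difference was 1.15 (SE 0.238, adjusted p = 0.0454), with 1.34 below 3000 and 0.87 from 3000. Slc7a1, a transporter of cationic amino acids, had 0.94 (SE 0.198, adjusted p = 0.0470), with 0.54 below 3000 and 1.501 from 3000, and was the 1 member that passed of 18 ATF4 and amino acid stress genes, of which 7 were higher and none lower at an unadjusted p under 0.05, with a median of 0.19. Asns, asparagine synthetase (1.24, adjusted p = 0.111), and the transcription factor gene Atf5 (0.83, adjusted p = 0.0618) did not pass. Dnajb11, a cochaperone of the endoplasmic reticulum chosen after its value was seen, had 1.02 (SE 0.209, adjusted p = 0.0454), with 1.20 below 3000 and 0.79 from 3000. Of 20 unfolded protein response genes none passed in limma, 7 were higher and none lower at an unadjusted p under 0.05, and the median was 0.24. Hyou1, a chaperone among them, had 0.90 (adjusted p = 0.0859).

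**Figure D3:**
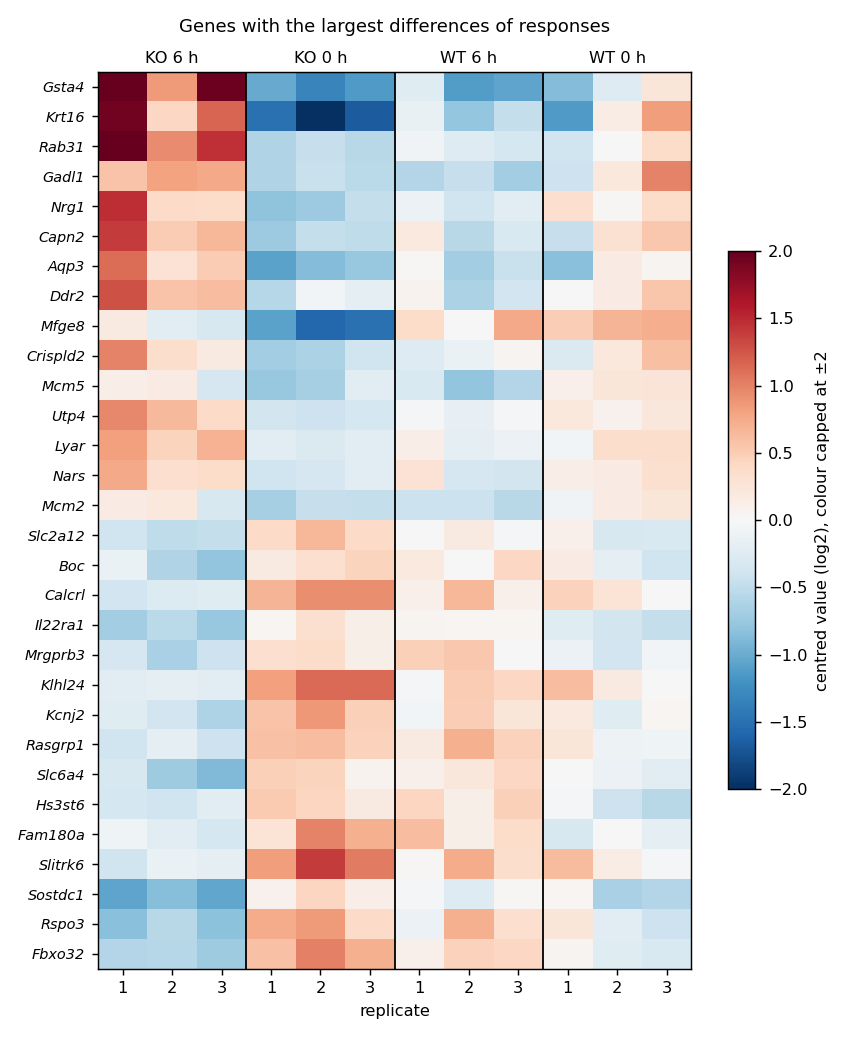
Centred log2 value in each of the 12 arrays (columns, KO left of WT, 6 h left of 0 h, replicates 1 to 3) of the 15 largest higher and 15 largest lower differences of responses (genes in rows), with colour capped at ±2. Higher genes such as Gsta4 and Krt16 are red in KO at 6 h and blue in KO at 0 h, lower genes such as Fbxo32 the reverse, and WT colours are paler.

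Among immune cell genes, Mfge8 had a higher response in KO. It encodes a bridge between dying cells and phagocytes and is made by Langerhans cells, the dendritic cells of the epidermis. It stood at 0.18, -0.21 and -0.31 in KO at 6 h, against -1.07, -1.58 and -1.50 in KO at 0 h, and at 0.37, -0.01 and 0.76 in WT at 6 h, against 0.49, 0.68 and 0.73 in WT at 0 h. KO arrays overlapped with WT arrays at 6 h and were below them at 0 h without overlap. The difference was 1.53 (SE 0.297, adjusted p = 0.0397), with KO minus WT of -0.48 (adjusted p = 0.269) at 6 h and of -2.01 (adjusted p = 0.000606) at 0 h. The difference was 1.14 below 3000 and 1.84 from 3000. In sheets of mixed cells, fewer cells of a type and less RNA per cell cannot be told apart.

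Of 17 Langerhans cell genes, Mfge8 was the 1 that passed, 6 were higher and none lower at an unadjusted p under 0.05, and the median was 0.49. Their mean ran from 0.03 to 0.30 in KO at 6 h, from -0.52 to -0.06 in KO at 0 h, from -0.05 to 0.13 in WT at 6 h and from -0.04 to 0.32 in WT at 0 h. Of 16 epidermal T cell genes none passed in limma, 2 were higher and none lower at an unadjusted p under 0.05, and the median was 0.18. Their mean ran from -0.27 to -0.11 in KO at 6 h, from -0.71 to -0.08 in KO at 0 h, from 0.40 to 0.49 in WT at 6 h and from 0.21 to 0.52 in WT at 0 h, so KO was below WT at both times. The part of these shifts in the other results was not tested. Neutrophil and monocyte genes had no row that passed among 19, nor any at an unadjusted p under 0.05, and a median of 0.06, with means from 0.03 to 0.32 in KO at 6 h, from -0.10 to 0.01 in KO at 0 h, from -0.06 to 0.05 in WT at 6 h and from -0.08 to 0.01 in WT at 0 h.

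None of the 11 AhR targets passed in limma. Of these, 2 were higher and 1 lower at an unadjusted p under 0.05, and the median was 0.10. Cyp1b1, a cytochrome P450 that AhR induces, stood at -0.60, -0.55 and -0.38 in KO at 6 h, against -0.02, 0.34 and 0.37 in KO at 0 h, and at 0.07, 0.10 and 0.08 in WT at 6 h, against 0.59, -0.24 and 0.02 in WT at 0 h. KO was the lower genotype at 6 h, the genotypes overlapped at 0 h, and the difference of -0.70 (SE 0.229) had an adjusted p of 0.170. Cyp1a1, the most used reporter of AhR activity, had 0.18 (adjusted p = 0.761).

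No cytokine or chemokine gene of the lists passed in limma. Of 25 cytokine genes, 3 were higher and 1 lower at an unadjusted p under 0.05, with a median of 0.14, and of 21 chemokine genes, 4 were lower and none higher, with a median of 0.05. Il1b, the interleukin that starts many skin responses, stood at 1.59, 1.09 and 1.48 in KO at 6 h, against 0.56, 0.00 and -1.02 in KO at 0 h, and at -0.23, -0.62 and -0.40 in WT at 6 h, against -0.30, 0.00 and 0.20 in WT at 0 h. The KO arrays at 6 h were above all others, but the spread of the KO arrays at 0 h was wide and the difference of 1.92 (SE 0.569) had an adjusted p of 0.130. Cxcl14, a chemokine that resting epithelium makes, had -1.19 (adjusted p = 0.0553). No member of the lists for interferon-stimulated genes (median 0.05), splicing factors (median 0.03), heat shock (median 0.05), hypoxia and glycolysis (median 0.01) or the circadian clock (median -0.02) passed in limma. At an unadjusted p under 0.05 the interferon list held 3 higher and 3 lower members, the splicing list 3 and 1, the heat shock list 2 and 2, the hypoxia list 4 and 3, and the clock list none and 1.

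**Figure D4:**
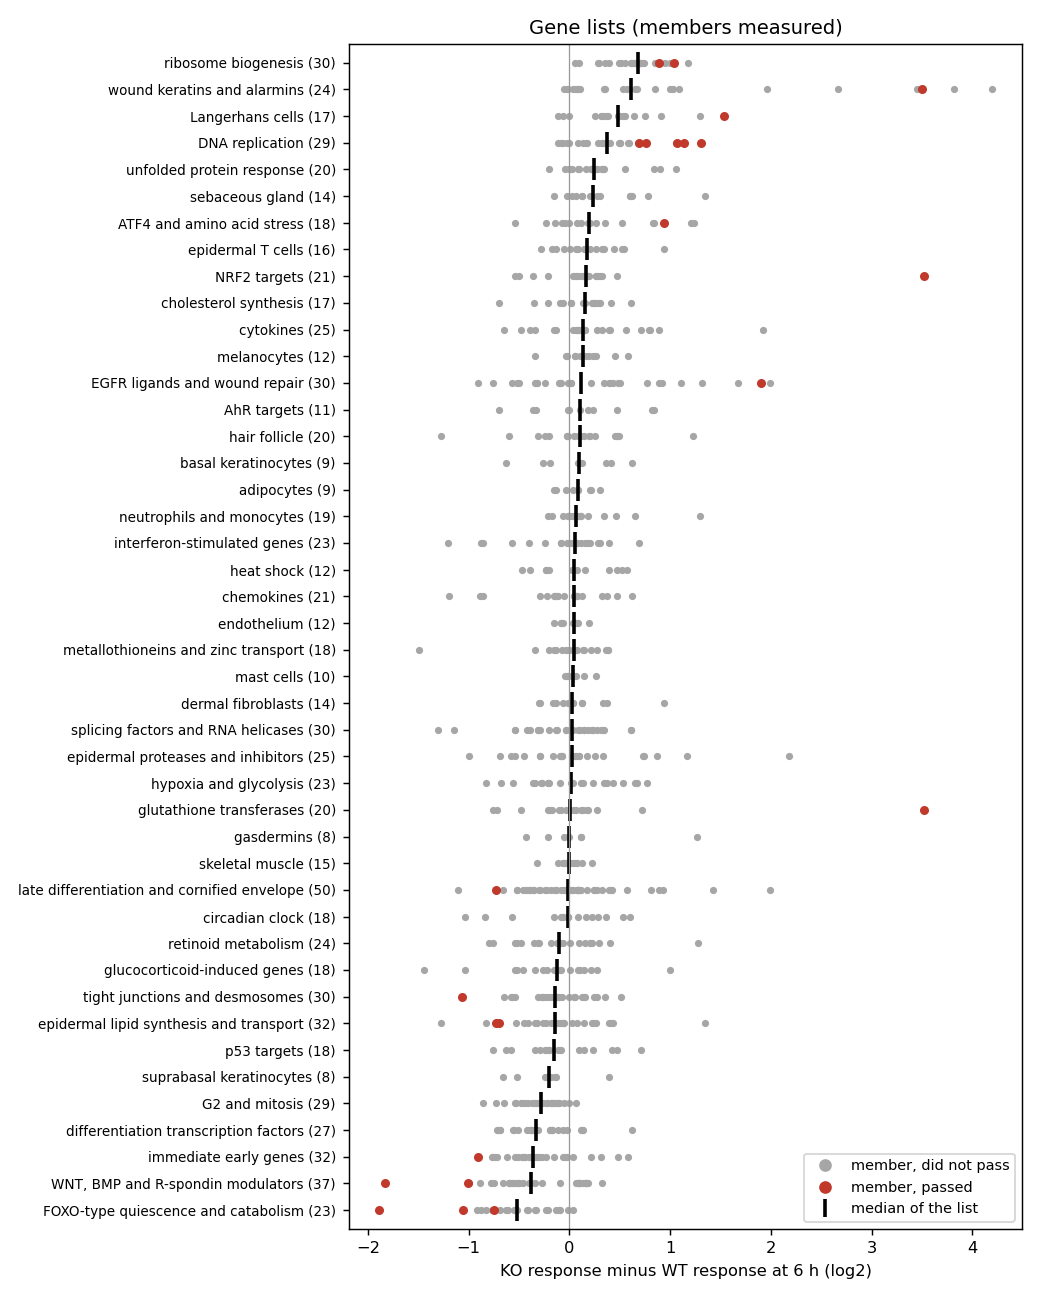
Difference of responses (KO minus WT, log2, horizontal axis) of each measured member of the 44 gene lists, ordered by the list's median (black bar), with members that passed in red. The median ran from 0.68 for ribosome biogenesis to -0.52 for FOXO-type quiescence and catabolism, and 14 lists held a member that passed.

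Lists of cell types and of other functions also held few calls. Of the 44 lists, 14 held at least 1 gene that passed and 30 held none. Lists of cells that an epidermal sheet may carry along, namely dermal fibroblasts (14 measured, median 0.03), endothelium (12, median 0.05), skeletal muscle (15, median -0.01), adipocytes (9, median 0.08), mast cells (10, median 0.04) and melanocytes (12, median 0.14), had no member that passed in limma. Across those 6 lists, 1 member was higher (of dermal fibroblasts) and 1 lower (of skeletal muscle) at an unadjusted p under 0.05. Basal keratinocyte genes (9, median 0.09), suprabasal keratinocyte genes (8, median -0.20), hair follicle genes (20, median 0.10) and sebaceous gland genes (14, median 0.24) had none that passed either, with 2, 1, 2 and 2 higher and 1, 2, 2 and 0 lower at an unadjusted p under 0.05.

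Arrays from 24 h enter the difference of responses at 6 h only through the spread that all 18 arrays share. That spread helped to choose the 172 genes (72 rows passed without the 24 h arrays), so their 24 h values are a description. All 24 h arrays have numbers from 3000, against 1 array of each genotype at 6 h. Between 6 h and 24 h, time and number class can therefore not be told apart. KO minus WT at 24 h had the sign of the 6 h difference of responses in 150 of 172 (87.2%), against 58.3% of all rows. The median was 0.17 over the 55 higher genes and -0.16 over the 117 lower genes, smaller than the medians of KO minus WT at 6 h, 0.50 and -0.55. Gsta4 was an exception in size. It stood at 3.49, 1.91 and 2.86 in KO at 24 h, against -0.64, 0.25 and 1.30 in WT at 24 h, a difference of 2.45. Fbxo32 stood at -0.47, -0.45 and 0.03 in KO at 24 h, against 0.02, -0.02 and -0.03 in WT at 24 h, with overlap. The difference of responses at 24 h, which shares the 0 h arrays, had no row that passed in limma (0% of rows), with 2165 rows (9.2%) at an unadjusted p under 0.05.

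The count of genes that passed moved with single arrays. It was 185, 109 and 31 without KO 6 h replicates 1, 2 and 3, and 50, 2 and 39 without those of KO 0 h. Without the replicates of WT 6 h it was 441, 25 and 24, and without those of WT 0 h it was 749, 13 and 14. Without both KO 6 h replicate 1 and WT 0 h replicate 1, a choice made after seeing the data, it was 922. Many named genes passed in few of the 12 fits that left out 1 array. Cldn8, Pik3ip1, Skint1 and Cdon passed in 2 of them, Boc, Egr1, Kcnj2 and Rbl2 in 3, and Cdkn1b and Axin2 in 4. These examples all had a lower response in KO, but the higher genes were no steadier. No higher gene passed in all 12 fits, and 2 lower genes did. Higher rows ran from 0 without KO 0 h replicate 2 to 192 without WT 0 h replicate 1. Lower rows ran from 2 to 557 without the same arrays. The median difference of the 55 higher genes was 0.94 within numbers below 3000 and 0.85 from 3000, and of the 117 lower genes -0.87 and -0.60.

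**Figure D5:**
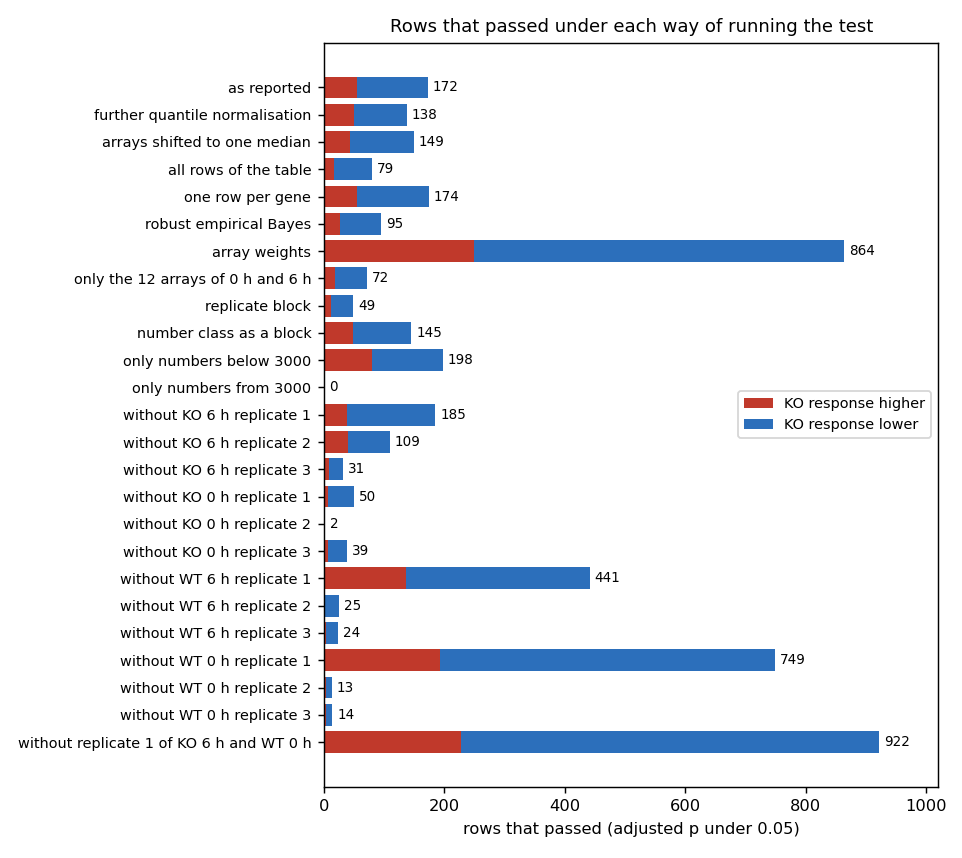
Number of rows that passed for the difference of responses under each way of running the test, with those higher in KO in red and those lower in blue. The count of 172 falls to 2 without KO 0 h replicate 2 and reaches 749 without WT 0 h replicate 1.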

How the data were processed

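Per the labels' protocols, total RNA of epidermal sheets was made into biotin-labelled cDNA for Affymetrix arrays. The authors deposited 1 table of log2 values, 33793 rows by 18 arrays; base 2 is taken from the range of the numbers (-6.4 to 4.3), since neither the base nor the background correction, normalisation and software are given in the sources used here. In 100% of rows the median over the 18 arrays was 0 within 1e-06, so rows had been centred, dim rows could not be filtered, and signal over background is unknown. Gene symbols came from the probe table of the platform: 23521 rows had 1 symbol (22180 genes), 1814 several and 8458 none, and only the first were tested.

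One limma 3.58.1 model (R 4.3.3) with a mean for each of 6 groups was fitted over all 18 arrays, which share 1 spread (12 residual and 2.76 prior degrees of freedom). Tests were moderated and 2-sided, with Benjamini-Hochberg adjustment over 23521 rows and a threshold of 0.05. For 3 arrays against 3 the smallest 2-sided p of an exact permutation test is 0.1, and no such test was run; 3 arrays a group limit the precision. Groups and replicate numbers come from the sample titles. Same-numbered arrays of different groups mostly did not deviate together (2 of 18 pairs had a correlation over 0.1, from -0.458 to 0.251). With 3 arrays a group this check is weak and cannot show whether the numbers pair samples. The labels do not say that they do, so the model holds no block.

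Genes named are Ahr, the 15 largest differences in each direction among rows that passed (predicted models and small RNAs skipped), and up to 4 members of each of 44 gene lists by smallest p, with 918 of 989 members measured; Mcm4, Mcm7 and Cyp1a1 are further list members, Atxn7l1 and Ccdc71l lie near Ahr, and genes said to be picked after their values were seen fall outside the rule. A gene with several rows is given by the row of largest SD. Members and lists were chosen with earlier results of these data known. Promoters came from a RefSeq table (GRCm38.p6), which held 45 of the 55 higher and 88 of the 117 lower genes. The code was tested on simulated data. Alternatives were other normalisations, row sets, variance models, array subsets and blocks.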

Additional observations from a re-analysis of the deposited data

Results flagged for a closer look

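The 2 genotypes' 6 h responses differed, by limma's test of the difference itself, in 172 rows. Other rows of Axin2, Atxn7l1, Ddx21 and Dut did not pass. Each gene named below is given by a row that passed, with the KO response minus the WT response in log2 (3 arrays per group). In arrest and turnover genes it was -1.89 for Fbxo32, -1.06 for Cdkn1b, -0.75 for Pik3ip1, -1.27 for Klhl24, -0.96 for Mxd4, -0.76 for Rbl2 and -0.74 for Ezh1. In signalling genes it was -1.83 for Rspo3, -1.51 for Sostdc1, -1.01 for Axin2, -1.18 for Boc, -0.93 for Cdon, -1.23 for Il22ra1, -1.17 for Il20rb and -0.91 for Egr1. Among other genes of the 15 largest lower differences it was -1.37 for Hs3st6, -1.32 for Slc6a4, -1.31 for Rasgrp1, -1.28 for Kcnj2, -1.19 for Calcrl, -1.17 for Slc2a12, -1.46 for Slitrk6, -1.41 for Fam180a and -1.25 for Mrgprb3. Barrier genes had -0.73 for Calml3, -0.70 for Dgat2, -0.72 for Acer1 and -1.06 for Cldn8. Il34 had -1.10, Skint1 -0.99 and Atxn7l1 -0.66.

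Higher responses in KO were 3.52 for Gsta4, 3.50 for Krt16, 2.28 for Rab31, 2.08 for Gadl1, 1.90 for Nrg1, 1.78 for Capn2, 1.70 for Aqp3, 1.65 for Ddr2, 1.53 for Mfge8 and 1.38 for Crispld2. Genes of replication and thymidine nucleotides had 1.30 for Mcm5, 1.13 for Mcm2, 1.07 for Mcm3, 0.76 for Mcm6, 0.69 for Clspn, 0.74 for Dtymk and 0.76 for Dut. Genes of ribosome building, amino acid supply, folding and nucleotide synthesis had 1.29 for Utp4, 1.17 for Lyar, 1.03 for Ddx21, 0.89 for Dkc1, 1.15 for Nars, 0.94 for Slc7a1, 1.02 for Dnajb11, 0.96 for Ctps and 0.85 for Gmps. Immune genes had 0.91 for Clec7a, 1.05 for Pla2g2d and 0.89 for Ctsz, and Ccdc71l near Ahr had 0.81.

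Some rows outside the comparison also passed. In a fit over all rows of the table, 12 of 10272 rows with no or several gene symbols passed, 1 higher and 11 lower. In the same fit 67 of the 23521 rows with 1 symbol passed, which is a larger share.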

How the results depend on the processing

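The direction of the 61 named genes that passed was the same in all 24 other ways of running the test (1464 values), which the choice of these genes on the same arrays favours: 758 values stayed past the threshold and 706 did not. The 172 rows for the difference of responses became 79 over all rows of the table, 95 with limma's robust option, 864 with array weights, 72 in a fit of the 12 arrays of 0 h and 6 h alone, and 0 in the arrays with numbers from 3000 (1772 rows at an unadjusted p under 0.05 in limma). With the replicate number as a block, it became 49, and whether these numbers pair samples is not known. Without replicate 1 of both KO 6 h and WT 0 h, added after seeing the data, it became 922, and without 1 array at a time it ran from 2 to 749. The 1172 rows of the KO response became 1856 with array weights, 608 in the fit of 12 arrays, 1 in numbers below 3000 and 1889 without replicate 1 of both groups, and ran from 159 to 1685 without 1 array. The WT response, with no row, had 1 in numbers below 3000 and 6 from 3000. Further quantile normalisation, a shift to one median, 1 row per gene and the number class as a block left the difference of responses at 138, 149, 174 and 145 rows. The cause of these changes was not tested. The fits within a class, of 12 arrays or without an array hold fewer samples, and the count both rose and fell among them. Signal over background is unknown, so its limit on dim rows cannot be given.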

Other observations

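Among the 172 genes, some that no list held were read after their values were seen, so they are given as values only. Il34, a cytokine that keratinocytes make and that Langerhans cells need, stood at -0.55, -0.46 and -0.82 in KO at 6 h, against 0.10, 0.51 and 0.20 in KO at 0 h, and at 0.08, -0.01 and 0.22 in WT at 6 h, against -0.12, 0.01 and -0.26 in WT at 0 h. KO at 6 h lay below the other 3 groups, and the difference of responses was -1.10 (SE 0.173, limma adjusted p = 0.0185). Skint1, which in mouse selects the gamma-delta T cells of the epidermis, had -0.99 (SE 0.206, adjusted p = 0.0454), from -0.84 in KO and 0.15 in WT. Clec7a, the receptor dectin-1 of myeloid cells, stood at 0.43, 0.37 and 0.58 in KO at 6 h, against 0.05, -0.07 and -0.17 in KO at 0 h, and at -0.16, -0.20 and -0.03 in WT at 6 h, against 0.37, 0.23 and 0.17 in WT at 0 h. Its groups separated within each genotype and each time, and the difference of 0.91 (SE 0.132, adjusted p = 0.0166) passed in 11 of 12 fits without 1 array. Pla2g2d, a secreted phospholipase, and Ctsz, a lysosomal cathepsin, had 1.05 (adjusted p = 0.0330) and 0.89 (adjusted p = 0.0293).

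Enzymes that make nucleotides were also read this way. Ctps, which makes CTP, stood at 0.78, 0.31 and 0.11 in KO at 6 h, against -0.40, -0.41 and -0.29 in KO at 0 h, and at 0.13, -0.29 and -0.26 in WT at 6 h, against 0.06, -0.03 and 0.14 in WT at 0 h. KO arrays separated by time, WT arrays overlapped, and the difference was 0.96 (SE 0.200, adjusted p = 0.0454). Gmps, which makes GMP, had 0.85 (adjusted p = 0.0424), Dtymk, the kinase of dTMP, 0.74 (adjusted p = 0.0325), and Dut, which keeps uracil out of DNA, 0.76 (adjusted p = 0.0373) on 1 row and 0.16 (adjusted p = 0.417) on its other row. Within label numbers below 3000 and from 3000 the difference was 1.05 and 0.51 for Gmps, and 0.89 and 0.56 for Dut.

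Of the lists not described above, none held a gene that passed in limma. Counts at an unadjusted p under 0.05 were 0 higher and 5 lower of 18 glucocorticoid-induced genes (median -0.12), 0 and 2 of 17 for cholesterol synthesis (median 0.15), 3 and 3 of 25 epidermal proteases and inhibitors (median 0.02), and 2 and 4 of 18 p53 targets (median -0.16). They were 1 and 4 of 24 for retinoid metabolism (median -0.10), 1 and 0 of 8 gasdermins (median 0.00) and 1 and 1 of 18 for metallothioneins and zinc transport (median 0.05).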
